A study of Arabidopsis thaliana with 4 samples.

Results

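Purple acid phosphatases and a small group of other phosphate-releasing hydrolases were followed in root tips of Arabidopsis thaliana. The 33 genes are PAP1 to PAP29 in order, the ribonuclease genes RNS1 and RNS2, the pyrophosphatase gene PPSPASE1 and the phosphatase gene PECP1. They were picked by locus identifier, and all 33 were found among the 33602 loci counted. Each of the 4 groups has 1 library, made from seedlings 4 days after germination on agar medium. The groups were med16-2 on low phosphate (5 µM), med16-2 on high phosphate (1 mM), Col-0 on low phosphate (5 µM) and Col-0 on high phosphate (1 mM). med16-2 is a mutant of the Mediator subunit gene MED16 in the Col-0 background, and the labels give no description of the allele.

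Purple acid phosphatases are metal-dependent enzymes that split phosphate from esters, and they take their name from the colour of the iron site. Plants short of phosphate release several of them into the cell wall and the medium, where they free phosphate from organic compounds, while others act in the vacuole, the plastid or the mitochondrion. Secreted and vacuolar RNases break down RNA so that its phosphate can be recovered. PPSPASE1, listed as PS2 in RefSeq, splits pyrophosphate, and PECP1, listed there as PEPC1, removes the phosphate of phosphoethanolamine and phosphocholine. Both belong to the haloacid dehalogenase fold and are unrelated to the purple acid phosphatases.

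A gene is called higher or lower between 2 libraries only where the ratio was at least 2-fold and its 95% interval left out equality. These intervals cover counting error and not the variation between plants, so such calls compare libraries. A second test used all 4 libraries in an additive model, edgeR's quasi-likelihood test with Benjamini-Hochberg adjustment over 18692 loci and a threshold of 0.05. That model sets 2 low phosphate against 2 high phosphate libraries with genotype as a block, or 2 med16-2 against 2 Col-0 libraries with phosphate as a block. Any difference of the effect between blocks counts as error in it. Levels are in CPM, counts scaled to library size with TMM factors (the trimmed mean of M values). The comparisons share libraries, each library standing in 1 phosphate and 1 genotype comparison, so their values are not independent.

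Gene counts came to between 10079345 and 15696333 a library. MED16 had 48 and 56 counts in med16-2 at low and high phosphate, against 747 and 420 counts in Col-0. All 6 root meristem markers and all 4 root cap markers examined had counts in every library. The med16-2 library on low phosphate stood apart in that 36.6% of its counted alignments were to several places, against 6.65% to 9.27% in the other 3, and every result for med16-2 at low phosphate rests on it. The genotype comparison at high phosphate and the phosphate comparison in Col-0 do not use it. Of the 33 genes, 21 passed the filter of a mean of at least 1 CPM over the 4 libraries. Those were 17 of the 29 purple acid phosphatases and all 4 other hydrolases.

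Because several of these genes moved together with phosphate supply, their upstream sequence was searched for P1BS, the binding sequence of the phosphate starvation regulator PHR1. The motif searched was GNATATNC, which reads the same on both strands. In the 250 bases before the annotated gene start (TAIR10.1, RefSeq) it occurred in 13 of the 33 genes, and in 5.46% of the 27442 windows of all protein-coding genes. In the 500 bases before the first coding base, a window chosen after seeing the data, it occurred in 19 of the 33, against 9.19% of all protein-coding genes. The first stretches shown are from genes that were higher at low phosphate and hold the motif upstream of the start, 5′ to 3′ in the direction of the gene, with the motif in capitals.
PECP1, chr1:6092346-6092425, minus strand, motif 362 bases before the start: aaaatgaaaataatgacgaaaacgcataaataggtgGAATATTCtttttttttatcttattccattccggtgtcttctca
PPSPASE1, chr1:27466522-27466601, minus strand, motif 217 bases before the start: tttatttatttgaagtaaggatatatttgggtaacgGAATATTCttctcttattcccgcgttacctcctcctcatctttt
PAP24, chr4:12814566-12814645, minus strand, motif 153 bases before the start: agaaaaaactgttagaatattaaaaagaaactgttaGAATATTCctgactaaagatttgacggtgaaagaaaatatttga
All 3 hold the same 8 letters, and the flanking bases differ.

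In PAP17, PAP12, RNS1 and PAP10 the motif lay after the annotated start, between it and the first coding base. PAP10 had no phosphate call in either genotype, and its only call by the size rule was lower in med16-2 at high phosphate. A site after the annotated start also lay in RNS2, which had no call in any comparison, and in PAP16, which had 0 counts. These are not shown. For PAP17, PAP12, RNS1 and PAP10, only the site itself is shown (30 bases, motif in capitals).
PAP17, chr3:6089479-6089508, plus strand, motif 289 bases before the first coding base: gctactggttgGAATATCCttcagcatctt
PAP12, chr2:11623569-11623598, minus strand, motif 149 bases before the first coding base: ataaaaatttgGAATATCCacttgcgatcc
RNS1, chr2:873514-873543, plus strand, motif 189 bases before the first coding base: caaaaggtacaGTATATACcataaatctcc
PAP10, chr2:7122876-7122905, minus strand, motif 122 bases before the first coding base: gctccattaacGAATATTCcgtacatcaag
PAP17 and PAP12 share the variant GAATATCC. In the 250 bases before the gene start, the motif occurred in 2 of the 7 genes that were higher at low phosphate in at least 1 genotype (PAP24 and PPSPASE1), in 3 of the 14 other measured genes (PAP1, PAP8 and RNS2) and in 8 of the 12 genes below the filter. In the window before the first coding base, chosen after seeing the data, these counts were 6 of 7 (all but PAP22), 4 of 14 (with PAP10 added) and 9 of 12. The share was largest among the genes below the filter in the window before the gene start and among the 7 genes in the other. The genes below the filter that hold the motif include the close copies PAP5, PAP6, PAP11, PAP19 and PAP25. The stretches around the motif in PAP5, PAP11 and PAP19 are alike. Matches in such copies are not separate cases, here or in the counts over all members. A match describes the sequence and does not show that a protein binds there.

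Low phosphate was compared with high phosphate in each genotype to ask which of these enzymes the root tip raises when phosphate is short. PECP1 and PAP17 had the largest ratios of the 21 measured genes in both genotypes, followed by PPSPASE1 and RNS1. PAP22 was also higher in both. PAP12 was higher in Col-0, PAP24 was higher in med16-2, and PAP29 was lower in med16-2. In med16-2, 6 of the 21 measured genes were higher and 1 was lower, where 2.26% and 1.03% of all 18692 loci were higher and lower. In Col-0, 6 were higher and 0 lower, where 3.24% and 1.49% of all loci were. In whole root tips, fewer cells of a type and less RNA per cell cannot be told apart.

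**Figure D1:**
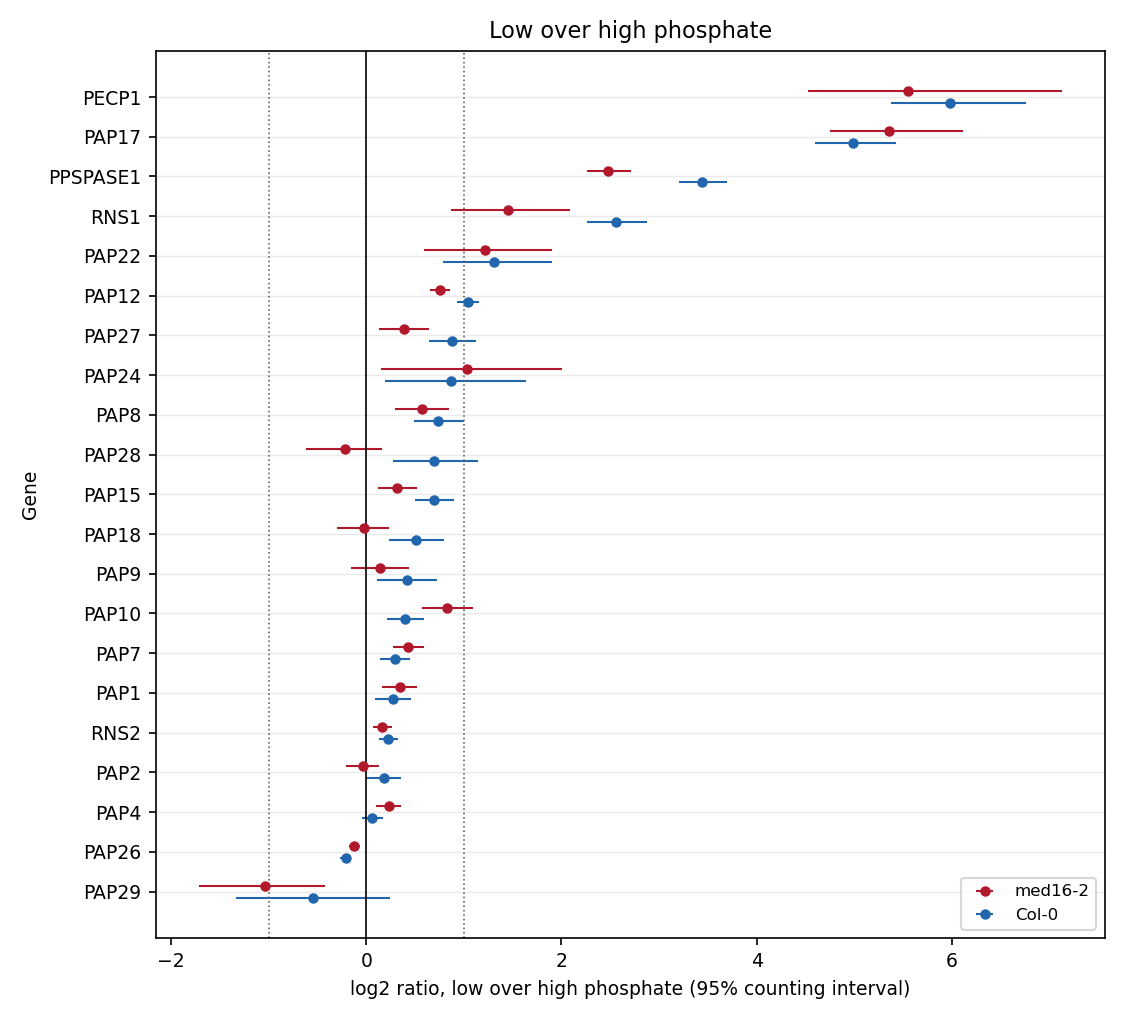
log2 ratio of low over high phosphate for the 21 measured genes, med16-2 in red above Col-0 in blue, with 95% counting intervals and dotted lines at 2-fold. PECP1 and PAP17 stand at 5.56 and 5.36 in med16-2 and at 5.99 and 4.99 in Col-0, while most purple acid phosphatases lie between 0 and 1.

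PAP17 (AT3G17790, chr3:6089381-6091231, plus strand, TAIR10.1) encodes a short purple acid phosphatase long used as a marker of phosphate starvation. It had 717 counts at low phosphate and 20 at high phosphate in med16-2, which are 58.5 and 1.39 CPM. In Col-0 it had 2592 and 50 counts, which are 162 and 5.08 CPM. Low phosphate libraries were far above high phosphate libraries in both genotypes, and each med16-2 value was below its Col-0 counterpart. The ratio was 41.1-fold (27.0 to 69.3) in med16-2 and 31.7-fold (24.2 to 43.2) in Col-0, and across both genotypes the log2 change was 5.14 (edgeR adjusted p = 0.000341). The last 122 bases of the gene overlap AT3G17800 on the opposite strand. That locus had 627 and 752 counts in med16-2 and 831 and 557 in Col-0 at low and high phosphate, and these libraries do not keep strand.

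The secreted enzymes PAP12, PAP10 and PAP26 account for much of the acid phosphatase activity that roots release. PAP12 (AT2G27190, chr2:11621222-11623618, minus strand) stood at 148 and 87.9 CPM at low and high phosphate in med16-2, and at 176 and 85.8 CPM in Col-0. Its ratio was 2.05-fold (1.90 to 2.22) in Col-0 and met the size rule there, while the log2 ratio of 0.75 (0.65 to 0.86) in med16-2 did not. Across both genotypes it rose by 0.90 on the log2 scale (edgeR adjusted p = 0.0321), and the difference between the genotypes' ratios was -0.28 (-0.44 to -0.13), under the 2-fold bound.

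PAP10 (AT2G16430, chr2:7120372-7123079, minus strand), which sits on the root surface, stood at 25.0 and 14.1 CPM in med16-2 at low and high phosphate, and at 43.5 and 32.99 CPM in Col-0. Its phosphate log2 ratios of 0.83 and 0.40 in med16-2 and Col-0 did not meet the rule, nor did the additive test pass (edgeR adjusted p = 0.164). PAP26 (AT5G34850, chr5:13107626-13111656, minus strand), which is found both in the vacuole and outside the cell, stood at 313 and 340 CPM in med16-2 and at 365 and 422 CPM in Col-0. The low phosphate library was the lower of the pair in both genotypes, with log2 ratios of -0.12 and -0.21, and the additive test gave an edgeR adjusted p of 0.466.

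RNS1 (AT2G02990, chr2:873506-874886, plus strand), a secreted RNase, had 80 and 34 counts at low and high phosphate in med16-2, which are 6.52 and 2.36 CPM. In Col-0 it had 928 and 97 counts, which are 58.1 and 9.85 CPM. The Col-0 library on low phosphate stood far above the other 3, and med16-2 on low phosphate was below even Col-0 on high phosphate. The ratio of low over high phosphate was 2.74-fold (1.83 to 4.26) in med16-2 and 5.88-fold (4.79 to 7.36) in Col-0. RNS1 rose by 2.20 on the log2 scale across genotypes (edgeR adjusted p = 0.0346). RNS2, a vacuolar RNase that turns over ribosomal RNA, had 147 and 131 CPM in med16-2 and 165 and 141 CPM in Col-0 at low and high phosphate. Its log2 ratios were 0.17 and 0.23, and the additive test gave an edgeR adjusted p of 0.391.

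PECP1 (AT1G17710, chr1:6090405-6092027, minus strand) had 260 and 6 counts at low and high phosphate in med16-2, or 21.2 and 0.417 CPM. In Col-0 it had 2005 and 19 counts, or 126 and 1.93 CPM. The order of the 4 libraries was the same as for PAP17, with Col-0 on low phosphate highest and med16-2 on high phosphate lowest. The ratios were 47.0-fold (23.1 to 140) in med16-2 and 63.5-fold (41.6 to 108) in Col-0, with a log2 change of 5.92 across genotypes (edgeR adjusted p = 0.000341). The med16-2 value rests on 6 counts at high phosphate, and with a pseudocount of 5 its log2 ratio was 4.82 in place of 5.56. PPSPASE1 (AT1G73010, chr1:27464528-27466348, minus strand) stood at 76.4 and 13.7 CPM in med16-2 and at 158 and 14.5 CPM in Col-0. The high phosphate libraries were close to each other, and the low phosphate libraries were not. The ratios were 5.57-fold (4.78 to 6.54) and 10.9-fold (9.22 to 13.0), and it rose by 2.96 across genotypes (edgeR adjusted p = 0.0133). The coding sequences of the pair are 78.8% identical.

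The remaining calls were for purple acid phosphatases of low level. PAP22 (AT3G52820) had 62 and 31 counts in med16-2 and 142 and 35 counts in Col-0 at low and high phosphate. It was 2.33-fold higher (1.502 to 3.74) in med16-2 and 2.48-fold higher (1.72 to 3.74) in Col-0, and the additive test did not pass (edgeR adjusted p = 0.0904). PAP24 (AT4G24890) had 30 and 17 counts in med16-2 and 69 and 23 in Col-0, with log2 ratios of 1.03 (0.15 to 2.00) and 0.87 (0.19 to 1.64). Only the first reached 2-fold, and 392 bases of this gene overlap AT4G24880 on the opposite strand. PAP29 (AT5G63140) had 30 and 73 counts in med16-2, 2.05-fold lower (1.34 to 3.29) at low phosphate, and 31 and 28 counts in Col-0, with a log2 ratio of -0.55 (-1.33 to 0.24). The calls for PAP24 and PAP29 in med16-2 did not stand with a pseudocount of 5.

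Among the other measured genes, PAP15, which encodes an enzyme with phytase activity, stood at 34.1 and 27.4 CPM in med16-2 and at 46.4 and 28.6 CPM in Col-0 at low and high phosphate. Its log2 ratios were 0.32 and 0.69, with no call. The 7 genes PAP1, PAP2, PAP7, PAP8, PAP9, PAP18 and PAP27 had no call in any comparison. PAP27, the closest relative of PAP24 at 78.4% protein identity, had log2 ratios of 0.39 and 0.88, and PAP8 of 0.57 and 0.74. PAP28 stood at 7.91 and 9.24 CPM in med16-2 and at 10.4 and 6.40 CPM in Col-0. Its log2 ratio was -0.22 in med16-2 and 0.69 in Col-0, and the difference of -0.92 (-1.48 to -0.35) was under 2-fold. PAP18 had ratios of -0.03 and 0.51, and PAP2, an enzyme of the plastid and mitochondrial outer membranes, of -0.04 and 0.18. PAP9, the closest relative of PAP2, had ratios of 0.14 and 0.41, PAP7 of 0.43 and 0.29, PAP1 of 0.34 and 0.27 and PAP4 of 0.23 and 0.06. Over the 4 libraries PAP7 ranged from 42.5 to 64.8 CPM, PAP2 from 39.8 to 45.0, PAP1 from 34.5 to 43.7 and PAP27 from 17.1 to 34.6. PAP8 ranged from 14.0 to 29.7 CPM, PAP18 from 15.6 to 22.2 and PAP9 from 13.3 to 17.7.

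As a description, the median log2 ratio over the 17 measured purple acid phosphatases was 0.34 in med16-2 and 0.51 in Col-0, beside -0.01 and -0.02 over all loci. Across both genotypes 5 of the 21 measured genes rose (PAP12, PAP17, RNS1, PPSPASE1 and PECP1) and 0 fell by edgeR's adjusted p, where 0.781% and 0.187% of all loci rose and fell. At an unadjusted p under 0.05, 13 of the 21 were higher and 1, PAP29, was lower, where 7.58% and 5.82% of all loci were. DESeq2 with the same design gave 10 higher and 0 lower at that unadjusted threshold, where 2.96% and 1.48% of all loci were. By adjusted p it also called 5 as higher and 0 as lower, where it called 171 and 57 of all 18692 loci.

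**Figure D2:**
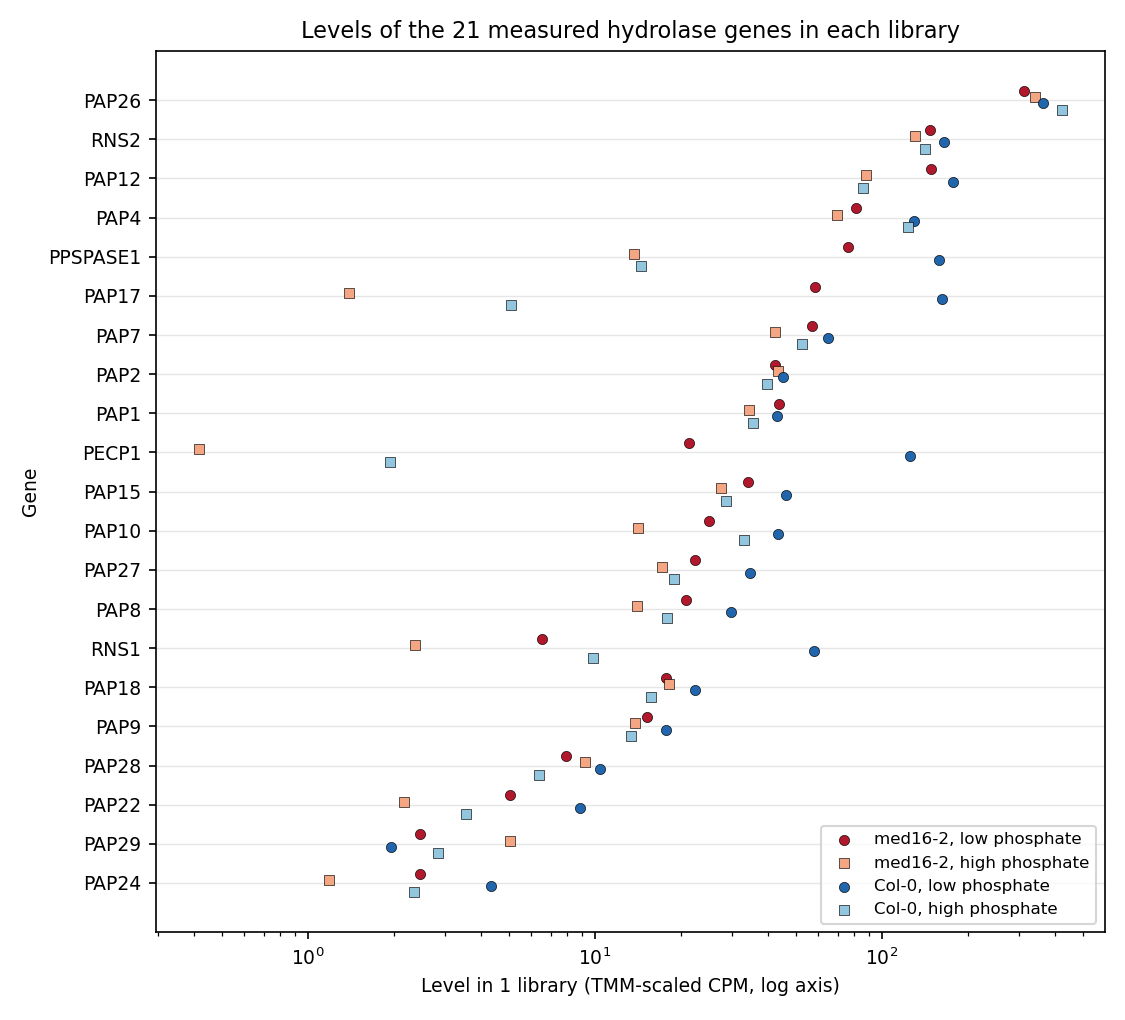
Level of each of the 21 measured genes in each library on a log axis of TMM-scaled CPM, 1 point a library, circles for low and squares for high phosphate. PECP1, PAP17, PPSPASE1 and RNS1 spread widely, while PAP26 stays between 313 and 422 CPM.

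The make-up of the purple acid phosphatase counts was set by few genes. Per kilobase of coding sequence, PAP26 had the highest level of all 33 genes in each library, with 219 and 238 CPM per kb in med16-2 and 256 and 296 CPM per kb in Col-0 at low and high phosphate. RNS2 followed, with 188 and 168 CPM per kb in med16-2 and 211 and 181 CPM per kb in Col-0. PAP17 ranked 7 and 19 of the 33 genes per kb in med16-2 at low and high phosphate, and 4 and 17 in Col-0. PECP1 ranked 8 and 21 in med16-2 and 5 and 20 in Col-0.

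Of all counts on the 29 purple acid phosphatase genes, PAP17 took 6.50% (6.05 to 6.98) and 0.187% (0.114 to 0.289) in med16-2 at low and high phosphate. In Col-0 its share was 13.4% (13.0 to 13.9) and 0.558% (0.415 to 0.736). The intervals are exact Clopper-Pearson intervals for counting error. PAP26 took 34.8% and 45.8% in med16-2 and 30.2% and 46.5% in Col-0, so its share was smaller at low phosphate in both genotypes. PAP12 took 16.5% and 11.8% in med16-2 and 14.6% and 9.44% in Col-0. The summed level of the 29 genes was 899 and 743 CPM in med16-2 and 1209 and 909 CPM in Col-0, which is 1.21-fold and 1.33-fold higher at low phosphate. Without PAP17 these were 1.13-fold and 1.16-fold.

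**Figure D3:**
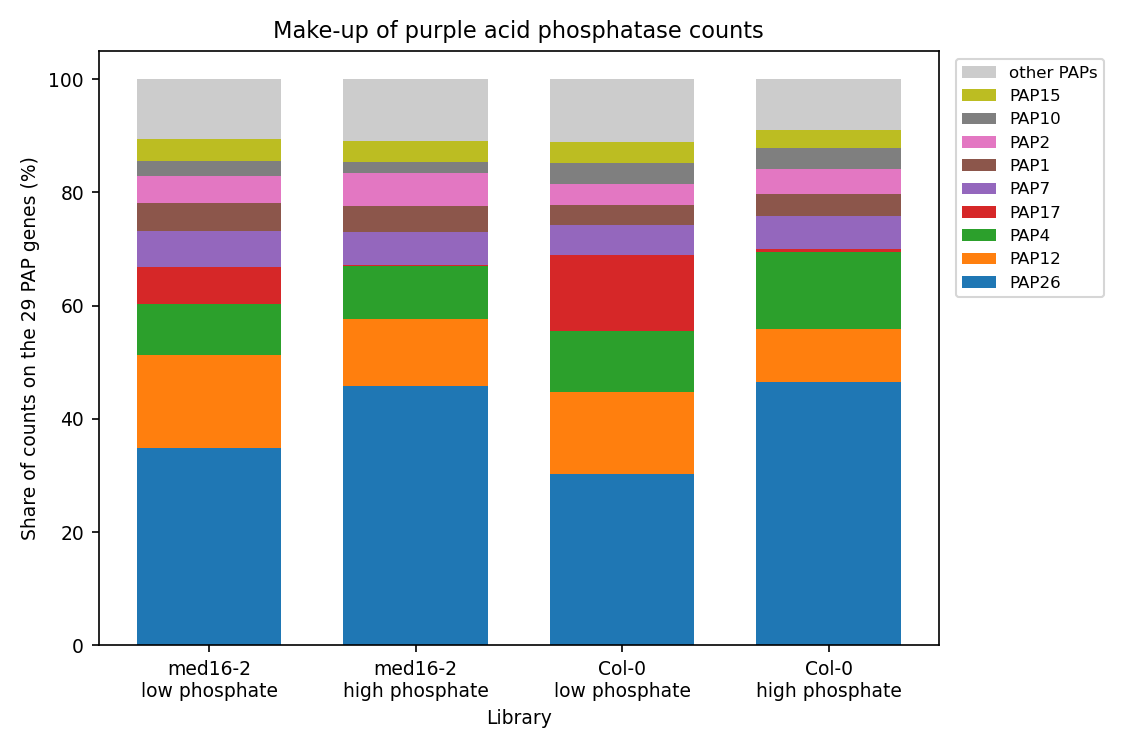
Share of the counts on the 29 purple acid phosphatase genes taken by each gene, 1 bar a library, with the 20 smaller genes pooled in grey. PAP17 takes 6.50% and 13.4% in the low phosphate libraries of med16-2 and Col-0, and 0.187% and 0.558% in the high phosphate libraries.

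Genotypes were compared at each phosphate level to ask which of these genes differ with MED16. RNS1, PECP1 and PAP17 were lower in med16-2 at both phosphate levels, PPSPASE1 was lower at low phosphate, and PAP10 was lower at high phosphate. None of the 21 measured genes was higher in med16-2 at either level. At low phosphate 4 were lower and 0 higher, where 6.14% and 1.04% of all loci were. At high phosphate 4 were lower and 0 higher, where 6.34% and 0.712% of all loci were. The median log2 ratio over the 17 measured purple acid phosphatases was -0.39 at low and -0.14 at high phosphate, beside 0.01 and 0.02 over all loci.

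RNS1 was the furthest below Col-0 of the 21 measured genes at low phosphate. Its 80 counts in med16-2 against 928 in Col-0 made it 8.86-fold lower (7.09 to 11.3), and the 34 against 97 counts at high phosphate made it 4.13-fold lower (2.79 to 6.36). Across both phosphate levels it fell by 2.77 on the log2 scale in med16-2 (edgeR adjusted p = 0.00835). PECP1 was 5.92-fold lower (5.20 to 6.77) at low and 4.38-fold lower (1.78 to 14.2) at high phosphate, the second on 6 against 19 counts, and it fell by 2.54 (edgeR adjusted p = 0.00245). PAP17 was 2.78-fold lower (2.56 to 3.02) at low and 3.60-fold lower (2.14 to 6.48) at high phosphate, and it fell by 1.54 (edgeR adjusted p = 0.00573).

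PAP10 passed the additive test for genotype, and it did not pass that for phosphate. It had 307 counts in med16-2 and 695 in Col-0 at low phosphate, a log2 ratio of -0.80 (-0.997 to -0.60) that did not reach 2-fold. At high phosphate it had 203 counts in med16-2 and 325 in Col-0, 2.34-fold lower (1.96 to 2.80), and it fell by 0.998 on the log2 scale across both levels (edgeR adjusted p = 0.0179). PAP12, its closest relative at 66.7% protein identity, had genotype log2 ratios of -0.25 and 0.03 at low and high phosphate (edgeR adjusted p = 0.51 in the additive test). PAP4 stood at 81.5 CPM in med16-2 and 129 CPM in Col-0 at low phosphate, and at 69.5 and 123 CPM at high phosphate. Neither ratio reached 2-fold, at -0.66 and -0.83, but PAP4 fell by 0.74 in the additive test (edgeR adjusted p = 0.0131).

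PPSPASE1 stood at 76.4 CPM in med16-2 and 158 CPM in Col-0 at low phosphate, 2.07-fold lower (1.92 to 2.24). At high phosphate it stood at 13.7 CPM in med16-2 and 14.5 CPM in Col-0, a log2 ratio of -0.09 (-0.40 to 0.24). The additive test, in which this inequality counts as error, gave an edgeR adjusted p of 0.122. PAP26 had genotype log2 ratios of -0.22 and -0.31 and RNS2 of -0.17 and -0.11 at low and high phosphate, with edgeR adjusted p values of 0.111 and 0.314. PAP29 had the highest ratios, 0.33 and 0.82, on 30 against 31 and 73 against 28 counts. In all, 5 of the 21 measured genes fell in the additive test (PAP4, PAP10, PAP17, RNS1 and PECP1) and 0 rose, where 6.52% and 0.792% of all loci fell and rose. At an unadjusted edgeR p under 0.05, 12 were lower and 0 higher, where 17.0% and 10.7% of all loci were. In DESeq2 these counts were 6 and 0, where 9.45% and 1.75% of all loci were. By adjusted p DESeq2 also called 5 as lower and 0 as higher, where it called 796 and 37 of all 18692 loci.

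**Figure D4:**
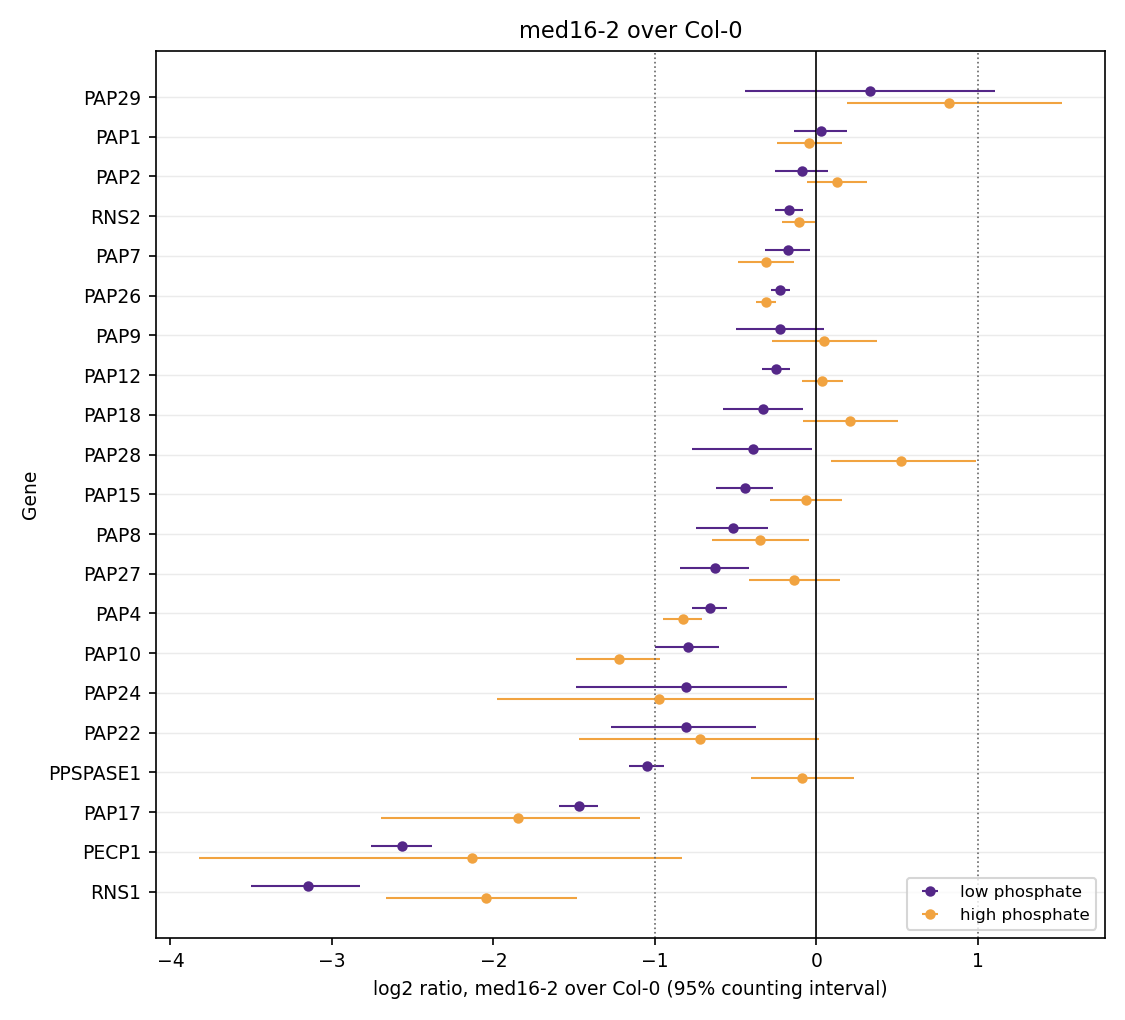
log2 ratio of med16-2 over Col-0 for the 21 measured genes, low phosphate in purple above high phosphate in orange, with 95% counting intervals and dotted lines at 2-fold. RNS1, PECP1 and PAP17 lie left of the 2-fold line at both levels, and PPSPASE1 does so at low phosphate.

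Marker genes of other tissues also differed between genotypes. The summed level of 5 photosynthetic shoot markers was 13.5 and 7.43 CPM in med16-2 at low and high phosphate, against 120 and 135 CPM in Col-0. All 4 measured members were lower in med16-2 at both levels, where 6.14% and 6.34% of all loci were. LHCB1.1 had 0 counts in every library, and RBCS1A had 0 in med16-2 at high phosphate. The 5 root hair markers summed to 707 and 503 CPM in med16-2 and to 721 and 929 CPM in Col-0, with RSL4 and PRP3 lower in med16-2 at high phosphate. The 5 endodermis markers summed to 352 and 361 CPM in med16-2 and to 503 and 455 CPM in Col-0. In the additive test CASP1 and CASP2 of that list fell (edgeR adjusted p = 0.0455 and 0.0256). The 6 root meristem markers summed to 142 and 144 CPM in med16-2 and to 140 and 126 CPM in Col-0. At low phosphate 3 of them had a genotype ratio above 0 and 3 below. WOX5, the 1 called lower there, had 7 counts in med16-2 and 56 in Col-0, and 5 in each at high phosphate. The part of all these markers in the genotype ratios of RNS1, PECP1, PAP17, PAP10 and PAP4 was not tested.

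The phosphate ratios of the genotypes were then set against each other. RNS1 was the gene whose ratio was smaller in med16-2 by the size rule, with a difference of -1.10 (-1.75 to -0.45) on the log2 scale, where 2.16% of all loci were lower and 2.30% higher. PPSPASE1 differed by -0.96 (-1.29 to -0.64), just under 2-fold, and passed it when libraries were scaled by total counts. PAP17 and PECP1 differed by 0.37 (-0.38 to 1.12) and -0.43 (-1.73 to 0.86), intervals that include 0 and reach past 2-fold. PAP10 differed by 0.43 (0.11 to 0.75). The size rule took 0 of the 17 measured purple acid phosphatases. With 1 library a group, these differences have no replicate check.

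The 12 genes below the filter were all purple acid phosphatases. PAP5, PAP16, PAP19, PAP21 and PAP25 had 0 counts in every library, where a count of 0 allows up to 3 counts, or 0.244 and 0.210 CPM in med16-2 and 0.191 and 0.298 CPM in Col-0 at low and high phosphate. PAP6 had 8 and 0 counts in med16-2 and 9 and 0 counts in Col-0 at low and high phosphate. PAP11 had 2 and 0 counts in med16-2 and 15 and 0 in Col-0, and PAP23 had 1 and 0 in med16-2 and 4 and 0 in Col-0. These 3 genes thus had reads in both low phosphate libraries and in neither high phosphate library. PAP3 had 1 and 3 counts in med16-2 and 24 and 4 in Col-0. PAP13 had 2 and 4 counts in med16-2 and 1 and 4 in Col-0, PAP20 had 7 and 8 in med16-2 and 8 and 9 in Col-0, and PAP14 had 1 count in all, in Col-0 at low phosphate. Without a filter the size rule would take PAP6 as higher at low phosphate in both genotypes and PAP3 and PAP11 as higher in Col-0. It would also take PAP3 and PAP11 as lower in med16-2 than in Col-0 at low phosphate.

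Several of these scarce genes are close copies of each other. PAP11 and PAP19 are 92.3% identical over the coding sequence and PAP6 and PAP25 84.5%, and PAP5, PAP6, PAP11, PAP19 and PAP25 were the members with an alignment of at least 90% identity over at least 50 bases elsewhere in the genome. Reads that align to several places were left out of the gene counts by the authors, so counts of these 5 genes are uncertain. None of the 21 measured genes had such a copy. Their upstream sequence is close as well, as the stretches around P1BS in PAP5, PAP11 and PAP19 show (motif in capitals).
PAP5, chr1:19716173-19716252, plus strand: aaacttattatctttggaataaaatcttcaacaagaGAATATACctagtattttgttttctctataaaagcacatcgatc
PAP11, chr2:7883993-7884072, minus strand: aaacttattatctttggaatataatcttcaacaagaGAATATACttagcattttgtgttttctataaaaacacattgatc
PAP19, chr3:16939824-16939903, minus strand: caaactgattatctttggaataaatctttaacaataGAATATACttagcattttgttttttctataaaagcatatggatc
The 3 share the motif variant GAATATAC, and of the 3 only PAP11 had counts. The RefSeq model of PAP5 encodes 242 residues, the shortest of the family, whose other extreme is PAP2 with 656. Of the 29 proteins, 20 hold a match to each of the 5 short patterns of the family's metal-binding motifs (DxG, GDxxY, GNH followed by D or E, VxxH and GHxH). Matches were counted anywhere in the protein, and DxG and VxxH also matched in RNS1, so a match does not show a metal-binding site.

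Related genes that free or sense phosphate were examined beside them. Of 13 other phosphate-releasing hydrolases, 9 were measured. At low phosphate 2 were higher in med16-2 and 3 in Col-0, where 2.26% and 3.24% of all loci were. The glycerophosphodiesterase gene GDPD1 had log2 ratios of 2.49 and 3.16 in med16-2 and Col-0, and the phospholipase gene NPC4 had 4.10 in both. VSP1, a vegetative storage protein gene with acid phosphatase homology, was higher in Col-0 at 2.29, on 43 against 5 counts. In med16-2 it had 10 and 8 counts at low and high phosphate. Its level was 2.69 CPM in Col-0 at low phosphate and 0.508 to 0.815 CPM in the other libraries. VSP1 thus passed the filter only through the library where it was high, and its calls rest on that library. NPC4 was lower in med16-2 than in Col-0 at both phosphate levels, at -2.04 each. BFN1, a nuclease gene, and VSP1 were lower in med16-2 at low phosphate, at -1.29 and -1.67. Of all loci, 6.14% and 6.34% were lower in med16-2 at low and high phosphate. In the additive test GDPD1, NPC4 and GDPD5 rose with low phosphate (GDPD5 by 0.60, edgeR adjusted p = 0.0492), and NPC4 fell in med16-2. The median of this list was 0.08 and 0.62 for phosphate in med16-2 and Col-0.

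Of 8 other pyrophosphatase genes, 0 met the size rule for phosphate in either genotype, with medians of 0.08 and 0.09 in med16-2 and Col-0. Of all loci, 2.26% were higher and 1.03% lower in med16-2, and 3.24% and 1.49% in Col-0. By the size rule PPA3 was lower in med16-2 at high phosphate, with a log2 ratio of -1.16. In the additive test PPA4, a soluble pyrophosphatase gene, rose by 0.82 with low phosphate (edgeR adjusted p = 0.0277) and fell by 0.64 in med16-2 (edgeR adjusted p = 0.0181), while PPA3 did not pass for genotype (edgeR adjusted p = 0.156). Among 11 measured phosphate signalling genes, SPX1, SPX2 and SPX3, which encode phosphate sensors, were higher at low phosphate in both genotypes. The log2 ratios of SPX1 were 4.46 in med16-2 and 4.38 in Col-0, and those of SPX2 were 1.05 and 1.43. SPX3, with 1 count in med16-2 at high phosphate, had 5.36 (3.39 to 11.26) in med16-2 and 4.99 (3.79 to 7.05) in Col-0. PHO2, a gene for a ubiquitin-conjugating enzyme that limits phosphate uptake, was lower at low phosphate in med16-2, at -1.53. PHR1 had 47.6 and 51.3 CPM in med16-2 and 52.4 and 61.6 CPM in Col-0 at low and high phosphate, with no call. ZAT6, a zinc finger gene, was lower in med16-2 at log2 ratios of -2.12 and -1.77 at low and high phosphate. SPX1 was lower at both levels, at -1.26 and -1.34, and SPX3 and PHO2 were lower at low phosphate, at -1.77 and -1.19. In the additive test SPX1, SPX2 and SPX3 rose with low phosphate, and SPX1, SPX3 and ZAT6 fell in med16-2.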

How the data were processed

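Root tip RNA was sequenced from 4 libraries, 1 for each genotype and phosphate level. The authors deposited counts, whole numbers of reads per locus without normalization. Libraries came from the TruSeq kit and did not keep strand, per the labels' protocols. Trimmomatic 0.35, TopHat2 2.0.9, HTSeq 0.6.0 and build TAIR10 are named in the submitters' processing notes; no settings were found in these notes. The 5 lines that name no gene, 9.89% to 42.1% of all counted alignments, were left out.

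Counts were scaled by TMM (edgeR 4.0.16, R 4.3.3) and filtered at a mean of 1 CPM, which left 18692 loci. Log2 ratios used a pseudocount of 0.5, with exact Clopper-Pearson 95% intervals. The difference of ratios had a normal interval. Additive edgeR quasi-likelihood fits had 1 residual degree of freedom. DESeq2 1.42.0 was the alternative. The ratio rule and the additive edgeR test for phosphate were tried on simulated data. The edgeR test for genotype and the DESeq2 fit were not. Libraries are not stated to be separate cultures, and with 1 library a group there is no spread between replicates. The edgeR p-values set each effect against the departure of these libraries from the additive model, pooled in part over loci. That departure may be technical.

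Gene models and sequences are from RefSeq on TAIR10.1, matched by locus identifier, since the count files hold no coordinates. Identity was computed with Biopython 1.88. The members, lists and rules were chosen with earlier results of these data known. All 33 members were accounted for; those named with full values met the size rule in at least 1 comparison or belonged to a set given whatever its values (PAP10, PAP12, PAP15, PAP17, PAP26, RNS1, RNS2, PPSPASE1 and PECP1). The promoter windows were built from that annotation because no promoter table was used. PAP4 and PAP28 were given in more detail after their values were seen.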

Additional observations from a re-analysis of the deposited data

Results flagged for a closer look

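RNS1 was the gene whose phosphate ratio differed between genotypes by the size rule. The difference, med16-2 minus Col-0, was -1.10 on the log2 scale with a counting interval of -1.75 to -0.45. It ranged from -1.18 to -1.10 over 6 alternatives. Those with no filter or a mean of at least 5 CPM used the same counts and scaling, so they could not differ. The difference was not tested against variation between plants.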

How the results depend on the processing

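Calls were recomputed under other scalings, filters, a pseudocount of 5 and a 1.5-fold rule. With the 1.5-fold rule 11 genes were higher at low phosphate in Col-0 (6 at 2-fold), 9 lower in med16-2 at low phosphate (4 at 2-fold), 1 higher in med16-2 at high phosphate (0 at 2-fold) and 3 had a smaller phosphate ratio in med16-2 (1 at 2-fold). Under that rule 6.97%, 11.9%, 2.77% and 4.71% of all loci were called in the same 4 comparisons and directions. That last count was 2 with total counts. The 1 gene lower at low phosphate in med16-2, PAP29, gave 0 with a mean of at least 5 CPM and 0 with a pseudocount of 5. P1BS was found in 20 of the 33 genes within 1000 bases before the start, a window chosen after seeing the data. In that window 20.3% of all protein-coding genes had it. The other alternatives kept each count of called members within 1.5 times. Of 819 recomputed values for single genes, 818 stayed within their interval (ratios) or kept their call (additive tests). Ratios with no filter or a mean of at least 5 CPM used the same counts and scaling, so they could not differ. A ratio within its interval could still change its call, as PAP24 and PAP29 did with a pseudocount of 5 and PPSPASE1 with total counts. In all, 3 values changed sign, all uncalled ratios of PAP1 near 0 with total counts (-0.0021, 0.00114 and -0.00324 for genotype at low phosphate, at high phosphate and their difference). PAP22 passed the additive phosphate test with no filter (edgeR adjusted p = 0.0472, range 0.0472 to 0.614 over its alternatives). Over all loci DESeq2 called 57 lower with phosphate (35 in edgeR), and 37 higher and 796 lower in med16-2 (148 and 1218 in edgeR). With no filter edgeR called 298 higher and 97 lower with phosphate (146 and 35 with the filter) and 312 higher in med16-2. No pairing by replicate was possible because each group has 1 library and so no replicate numbers to block on. The additive fits did match libraries, with genotype or phosphate as the block. Leaving out a library left the additive fit without residual degrees of freedom. Depth limits the genes under 1 CPM.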
